A study of Mus musculus with 12 samples.

Results

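SOX proteins are transcription factors that bind DNA through an HMG box, and they are grouped by the likeness of that box. SOXF members (SOX17, SOX7, SOX18) act in endoderm and in vessels, SOXB1 members (SOX2, SOX3) in pluripotent and neural cells, SOXC members (SOX4, SOX11, SOX12) in many immature tissues, and SOX9 (SOXE) in cartilage, gut and other progenitors. SOX15 (SOXG) is close to SOXB1. In pluripotent cells SOX2 binds composite sites beside OCT4, and SOX17 can pair with the same partner on sites of another spacing in endoderm. The 10 SOX genes described here were taken by gene name from the 54446 genes of the deposited expression table, and each name matched 1 gene.

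The study sequenced poly(A) RNA from undifferentiated mouse embryonic stem cells of the E14 line and from their differentiated progeny, in 12 libraries, 3 in each of 4 groups. The undifferentiated group (mESC) was kept in serum and the cytokine LIF over irradiated embryonic fibroblasts, which serve as feeders. The differentiated cells, also labelled E14, were sorted on reporters for T (Brachyury, a factor of the primitive streak) and SOX17 into T+, SOX17+/T+ (called double-positive below) and SOX17+ cells. The sources used here do not give the reporter alleles, the number of clones, or the differentiation protocol and its duration. No label ties the 3 libraries of a group to separate cultures, and the p-values below speak of the spread between these libraries, which may be technical.

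Levels are TPM, which are scaled for transcript length and to the same total in every library. They are given by library in the order of replicates 1, 2 and 3, or as the mean ± SD with n = 3. A difference is that of log2(TPM + 1) ± the standard error of a limma fit to all 12 libraries, and this scale understates changes of genes near 1 TPM. A gene is called at a Benjamini-Hochberg adjusted p under 0.05 over the 16097 genes with at least 1 TPM in at least 3 libraries. All 10 SOX genes passed that filter. Sox15 reached 1 TPM in 6 of the 12 libraries, Sox17 in 9, Sox2 in 10, and Sox7 and Sox18 in 11. The number of reads behind a TPM value is unknown. In bulk samples, fewer cells of a type and less RNA per cell cannot be told apart.

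The markers named here followed the group labels, while other endoderm genes went both ways, as given below. Pou5f1 (OCT4) stood between 1348 and 1396 TPM in mESC and between 5.08 and 6.03 TPM in SOX17+. T stood between 92.1 and 158 TPM in T+, between 31.7 and 61.5 TPM in double-positive and between 1.86 and 2.84 TPM in SOX17+ libraries. These levels of T can follow from the sort on its reporter. The endoderm factor Foxa2 stood between 76.9 and 90.5 TPM in SOX17+. It also stood between 19.3 and 36.2 TPM in T+ and between 49.2 and 71.9 TPM in double-positive libraries. The feeder fibroblast list (13 genes, none of which stood at 0 in all mESC libraries) summed to between 5200 and 6302 TPM in mESC and to at most 82.0 TPM in every sorted library. Feeder RNA therefore moves with each comparison against mESC, and its part in the SOX values was not tested.

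The gene models differ in structure. In GENCODE M21, whose identifiers and GRCm38 coordinates match the table for all 10 genes, the coding transcripts of Sox2, Sox3, Sox4 and Sox11 have 1 exon, those of Sox7, Sox18 and Sox15 have 2, those of Sox9 have 3, those of Sox12 have 1 to 2 and those of Sox17 have 2 to 5. Across the 79 codons of the HMG box, pairs within a subgroup shared 81.0 to 92.4% of residues and pairs from different subgroups 55.7 to 78.5%. The longest stretch of identical bases between transcripts of any of the 45 pairs was 48 bases, between Sox4 and Sox11. The reads were 100 bases long, longer than any such stretch.

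RefSeq promoter windows (GRCm38.p6) matched 5 of the 10 genes: Sox2, Sox4, Sox11, Sox12 and Sox15. The 250 bases upstream of the RefSeq start are shown for pairs that moved together below, Sox2 and Sox15 (high in mESC only) and Sox4 and Sox11 (highest in T+). Each is written 5′ to 3′ along its gene, and capitals mark every match to the words searched.
Sox2, chr3:34649745-34649994, plus strand: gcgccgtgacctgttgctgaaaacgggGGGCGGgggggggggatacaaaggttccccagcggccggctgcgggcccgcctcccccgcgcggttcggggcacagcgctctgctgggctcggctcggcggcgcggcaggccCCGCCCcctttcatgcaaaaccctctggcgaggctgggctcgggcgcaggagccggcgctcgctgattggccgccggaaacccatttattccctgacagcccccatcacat
Sox15, chr11:69654787-69655036, plus strand: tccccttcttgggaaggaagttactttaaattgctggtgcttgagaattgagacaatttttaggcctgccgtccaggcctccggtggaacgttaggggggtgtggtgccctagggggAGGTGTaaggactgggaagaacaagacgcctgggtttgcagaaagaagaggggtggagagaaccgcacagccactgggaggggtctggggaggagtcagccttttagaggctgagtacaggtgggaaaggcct
Sox4, chr13:28953700-28953949, minus strand: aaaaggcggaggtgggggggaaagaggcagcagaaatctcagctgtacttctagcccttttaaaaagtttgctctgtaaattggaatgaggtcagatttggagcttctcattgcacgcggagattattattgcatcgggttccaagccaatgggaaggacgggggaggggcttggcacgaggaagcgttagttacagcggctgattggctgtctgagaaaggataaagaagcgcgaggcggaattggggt
Sox11, chr12:27342719-27342968, minus strand: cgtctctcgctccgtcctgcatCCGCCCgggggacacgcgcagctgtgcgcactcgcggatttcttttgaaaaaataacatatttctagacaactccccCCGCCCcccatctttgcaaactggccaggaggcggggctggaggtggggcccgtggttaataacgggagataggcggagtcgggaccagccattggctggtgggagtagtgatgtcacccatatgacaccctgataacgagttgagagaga

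Searched on both strands were the SOX core words AACAAT and ACAATG (which overlap each other), the octamer ATGCAAAT bound by OCT factors, the T-box half-site AGGTGT, the forkhead word TGTTTAC, the TCF/LEF word CTTTGA, the GATA word AGATAA and the GC box GGGCGG. Neither SOX core word is in these 4 windows or in that of Sox12. Of all 32851 windows of this length, 9.42% hold AACAAT and 10.7% ACAATG. The Sox2 and Sox11 windows each hold 2 GC boxes, a word in 32.7% of all windows. The Sox15 window holds 1 T-box half-site, 133 bases upstream of the start, a word in 11.8% of all windows. None of the words is in the Sox4 window. The Sox12 window holds 3 GC boxes (2 of them overlap), 1 forkhead word (3.17% of all windows) and 1 octamer (1.6% of all windows). CTTTGA and AGATAA, in 13.8% and 9.99% of all windows, are in none of the 5. GC content was 72.0% for Sox2, 58.0% for Sox11, 55.6% for Sox15 and 50.8% for Sox4, against a median of 52.4% over all windows. The RefSeq start lies 410 bases from the start of the gene in the table for Sox2, 277 for Sox15, 144 for Sox11 and 14 for Sox4. Such matches describe letters, not bound sites.

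The leading SOX transcript was Sox2 in mESC, Sox4 in T+ and Sox17 in double-positive and SOX17+ cells. Summed over 20 SOX genes, the 10 described here and 10 further family members, SOX transcripts came to 504.6 ± 14.8 TPM in mESC, 231 ± 3.99 in T+, 327 ± 7.06 in double-positive and 393 ± 22.7 in SOX17+ cells. Sox2 made up 69.6 ± 0.266% of that sum in mESC. In T+ cells Sox4 made up 35.0 ± 0.408%, Sox12 22.0 ± 0.974% and Sox11 18.3 ± 0.802%. Sox17 made up 42.5 ± 3.48% in double-positive and 58.5 ± 1.06% in SOX17+ cells, a share that can follow from the sort. The SOXC genes together held 75.3% in T+, 42.5% in double-positive and 25.1% in SOX17+ cells. No test was made on these shares.

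**Figure D1:**
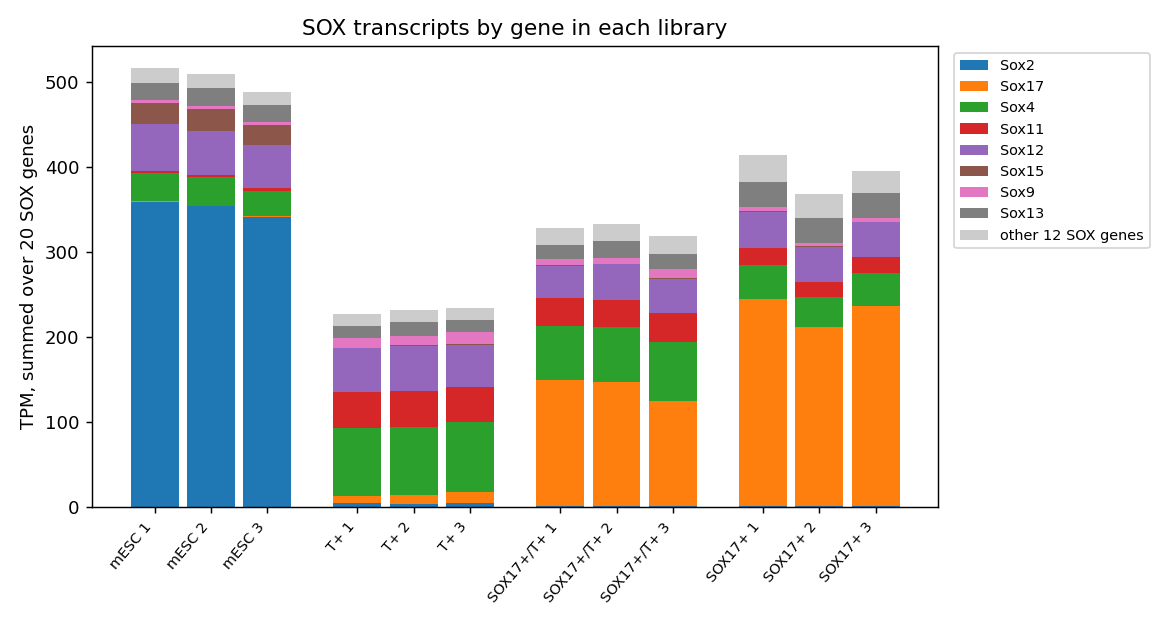
Stacked bars give TPM of SOX genes in each of the 12 libraries (x axis, group and replicate; y axis, TPM summed over 20 SOX genes), coloured by gene. Sox2 fills most of each mESC bar, the SOXC genes most of each T+ bar and Sox17 the largest part of each SOX17+ bar.

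Most of the 10 genes differed between groups, read against a background in which most genes also differed from mESC. In T+ versus mESC 8 of 10 were called (84% of all tested genes), 5 higher (34.5%) and 3 lower (49.5%). In double-positive versus mESC 10 of 10 were called (85.2%), 6 higher (34.9%) and 4 lower (50.3%). In SOX17+ versus mESC 9 of 10 were called (85.4%), 5 higher (35.4%) and 4 lower (50%). The shares called in either direction lie near the background. Among the sorted populations, 9 of 10 were called in double-positive versus T+ (28.4% of all tested genes), 3 higher (12.6%) and 6 lower (15.8%). In SOX17+ versus T+ 9 of 10 were called (54.5%), 3 higher (25.4%) and 6 lower (29%), and in SOX17+ versus double-positive 6 of 10 (36.6%), 3 higher (19.8%) and 3 lower (16.8%). The higher genes in each of these 3 comparisons were the SOXF genes.

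The median size of the differences among sorted groups was above that over all genes. The 10 genes were chosen with earlier results of these data known, and Sox17 was sorted on. The contrast is therefore a description and not a test of the family. The median absolute log2 difference of the 10 genes in SOX17+ versus T+ was 1.25, against 0.21 over all tested genes, and 0.74 against 0.14 in SOX17+ versus double-positive. Signed, these medians were -0.54 and -0.03, against -0.03 and 0.00 over all genes. Counts of at least 2-fold differences are of called genes on the log2(TPM + 1) scale. By that measure 3 of the 10 were at least 2-fold higher in SOX17+ than in T+ (4.95% of all tested genes), and Sox2, Sox4, Sox11 and Sox9 at least 2-fold lower (3.7%). Sox3 fell short on that scale (-0.79 ± 0.13, adjusted p = 2.5e-04), although its mean TPM, 3.90 ± 0.621 in T+ and 1.85 ± 0.491 in SOX17+, differed by more than 2-fold. The comparisons share libraries, so they are not independent of each other.

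Of the SOXF genes, Sox17 (ENSMUSG00000025902.13, chr1:4490931-4497354, minus strand) is the gene whose reporter was sorted on, so its differences between sorted groups can follow from the gates. TPM of Sox17 were 0.798, 0.484 and 0.632 in mESC, 7.96, 9.99 and 12.9 in T+, 148, 146 and 123 in double-positive and 244, 211 and 235 in SOX17+ libraries. No groups overlap, and the T+ libraries also hold Sox17 transcripts above the mESC level (2.77 ± 0.14, adjusted p = 1.7e-09). On the log2(TPM + 1) scale Sox17 was called at least 2-fold higher in double-positive than in T+ cells, as were 1.77% of all tested genes. Sox7 and Sox18 were not on that scale, although their mean TPM differed by more than 2-fold.

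Sox7 and Sox18 were not used for the sort. Both are known for vessel development, and Sox7 also for extraembryonic endoderm. TPM of Sox7 (ENSMUSG00000063060.6, chr14:63943673-63950732, plus strand) were 1.05, 0.926 and 1.14 in mESC, 1.04, 1.26 and 1.54 in T+, 2.59, 3.09 and 2.61 in double-positive and 7.66, 7.07 and 5.82 in SOX17+ libraries. The mESC and T+ libraries overlap, all double-positive libraries lie above both, and all SOX17+ libraries lie above those. Sox7 was higher in double-positive than in T+ cells (0.73 ± 0.11, adjusted p = 2.2e-04) and higher again in SOX17+ than in double-positive cells (1.06 ± 0.11, adjusted p = 6.6e-06). T+ and mESC did not pass the test (0.16 ± 0.11, adjusted p = 0.19), but did with quantile normalization (0.58, adjusted p = 2.4e-04).

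TPM of Sox18 (ENSMUSG00000046470.5, chr2:181669836-181671640, minus strand) were 1.50, 1.08 and 0.740 in mESC, 1.56, 1.80 and 1.85 in T+, 3.47, 4.36 and 3.53 in double-positive and 9.72, 9.65 and 8.17 in SOX17+ libraries. The order is that of Sox7, with no overlap between neighbouring groups. Sox18 was higher in double-positive than in T+ cells (0.80 ± 0.12, adjusted p = 3.3e-04) and higher again in SOX17+ than in double-positive cells (1.09 ± 0.12, adjusted p = 1.9e-05). The difference of T+ from mESC (0.39 ± 0.12, adjusted p = 0.010) was called with all libraries and not without mESC replicate 3 (0.26, adjusted p = 0.057). Sox7 and Sox18 were at least 2-fold higher on the log2(TPM + 1) scale in SOX17+ than in double-positive cells, as were 1.62% of all tested genes (Sox7 fell to 0.98 without SOX17+ replicate 1), while Sox17 stood 0.73 ± 0.14 higher. Of all tested genes 1.1% were at least 2-fold lower there, and of the 10 the lowest difference was that of Sox9 (-0.88 ± 0.14).

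Relative to Sox17, Sox7 stood at 12.5 ± 0.617% of its TPM in T+, above both groups with SOX17 in the gate, and Sox18 at 17.3 ± 2.72%. Sox7 stood at 1.76, 2.12 and 2.12% of the TPM of Sox17 in double-positive and at 3.14, 3.35 and 2.48% in SOX17+ libraries. All SOX17+ ratios exceed all double-positive ratios, a 1.49-fold difference (exact permutation test, 2-sided, p = 0.1, the smallest that 3 against 3 libraries can give). The ratio of Sox18 to Sox17 was 1.47-fold higher (exact permutation p = 0.1, again the smallest possible). The ratio of Sox7 to Sox18 was 1.02-fold higher (exact permutation p = 0.8). These 3 ratios were chosen after their values were seen, and the ratios to Sox17 can follow from the gates.

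**Figure D2:**
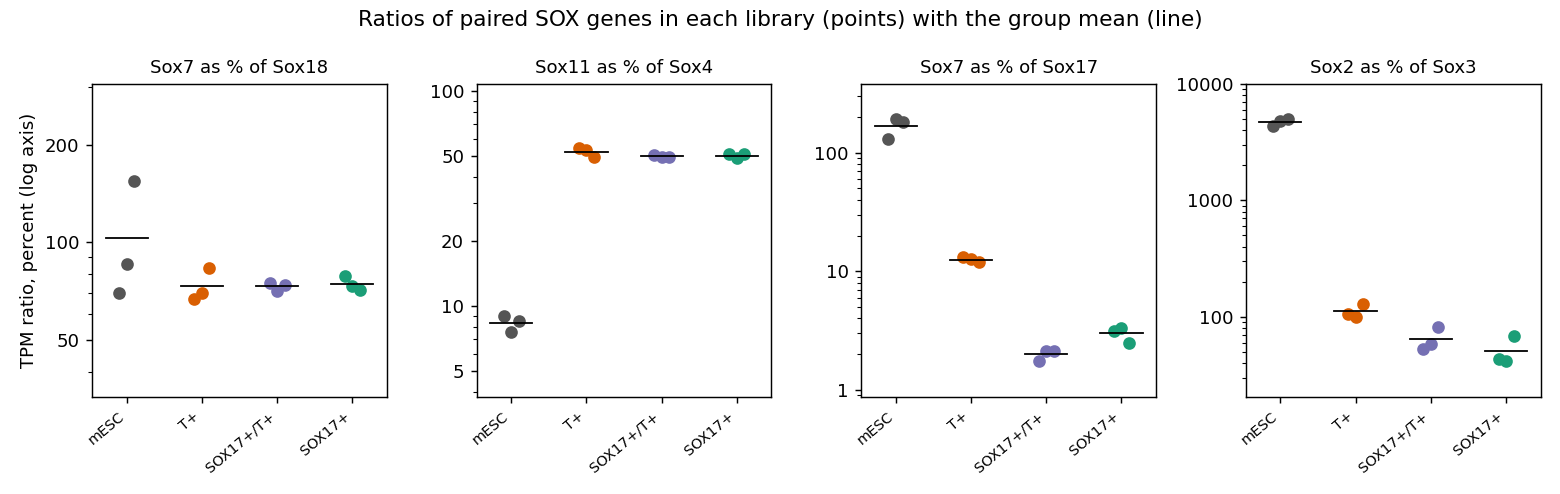
Each panel gives the TPM of 1 SOX gene as a percentage of another (y axis, log scale) by group (x axis), with 1 point per library and a line at the group mean (n = 3). Sox7 as a share of Sox17 is lower in double-positive than in SOX17+ libraries and higher in T+ and mESC than in both, and Sox2 exceeds Sox3 most in mESC.

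Endothelial genes differed in both directions. Of 18 endothelial genes and SOXF partners 15 were tested, and 9 were higher and 5 lower in SOX17+ than in T+ cells (median 1.71, against 25.4% higher, 29% lower and a median of -0.03 over all genes). Cdh5 (VE-cadherin) stood at 0.643 ± 0.137 TPM in T+, 4.99 ± 0.589 TPM in double-positive and 15.5 ± 1.77 TPM in SOX17+ cells (3.33 ± 0.10, adjusted p = 3.0e-11 for SOX17+ versus T+). The receptor gene Tie1 stood at 0.355 ± 0.15, 3.73 ± 0.650 and 11.9 ± 1.49 TPM in the same order (3.25 ± 0.12, adjusted p = 1.3e-10). Pecam1, an adhesion molecule of vessels, was higher in SOX17+ than in T+ cells (1.71 ± 0.09, adjusted p = 3.7e-09) but highest in mESC, at 30.3 ± 0.423 TPM. The 5 lower genes were Notch1 (-2.24 ± 0.09, adjusted p = 3.0e-10), Prox1 (-1.27 ± 0.09, adjusted p = 8.0e-08), Kdr (-0.57 ± 0.09, adjusted p = 1.5e-04), Efnb2 (-0.54 ± 0.08, adjusted p = 1.2e-04) and Etv2 (-0.52 ± 0.14, adjusted p = 0.0073). The summed TPM of the list was 86.2 to 89.5 in mESC, 118 to 133 in T+, 155 to 172 in double-positive and 205 to 226 in SOX17+ libraries. Of its venous and lymphatic genes, Emcn and Lyve1 stood at no more than 0.0761 TPM in any sorted library. Nr2f2 stood between 1.11 and 2.93 TPM there, and Prox1 at 9.04 ± 0.540 TPM in T+, 8.91 ± 1.25 TPM in double-positive and 3.17 ± 0.225 TPM in SOX17+ cells. Flt4, a receptor gene of these vessels, ran the other way, at 1.63 ± 0.114, 2.39 ± 0.138 and 4.61 ± 0.476 TPM in the same order. In mESC it stood at 4.10 ± 0.191 TPM.

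Of the extraembryonic endoderm list (14 genes, 13 tested), 11 were higher and 2 lower in SOX17+ than in T+ cells (median 1.38), against 25.4% higher and 29% lower over all genes. Ttr, which encodes a carrier protein, reached 73.5 ± 8.33 TPM in SOX17+ cells (5.09 ± 0.15, adjusted p = 2.5e-11 against T+), and Col4a1, a basement membrane collagen, 208 ± 26.7 TPM. The lower genes were Pdgfra, a receptor of primitive endoderm and mesoderm, at 41.8 ± 6.03 TPM in T+ and 9.28 ± 0.682 TPM in SOX17+ cells (-2.05 ± 0.10, adjusted p = 2.0e-09), and the laminin gene Lama1 (-0.47 ± 0.11, adjusted p = 0.0020). Afp stood at no more than 0.592 TPM in any library and at 0 in T+. The list summed to 748 to 902 TPM in mESC and to 349 to 382 TPM in T+ libraries. It summed to 424 to 478 TPM in double-positive and to 858 to 925 TPM in SOX17+ libraries. Sparc alone stood at 587 ± 58.8 TPM in mESC, while 4 of the 14 genes, Ttr among them, had a mean under 1 TPM there. The part of either cell type in the Sox7 and Sox18 values was not tested.

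**Figure D3:**
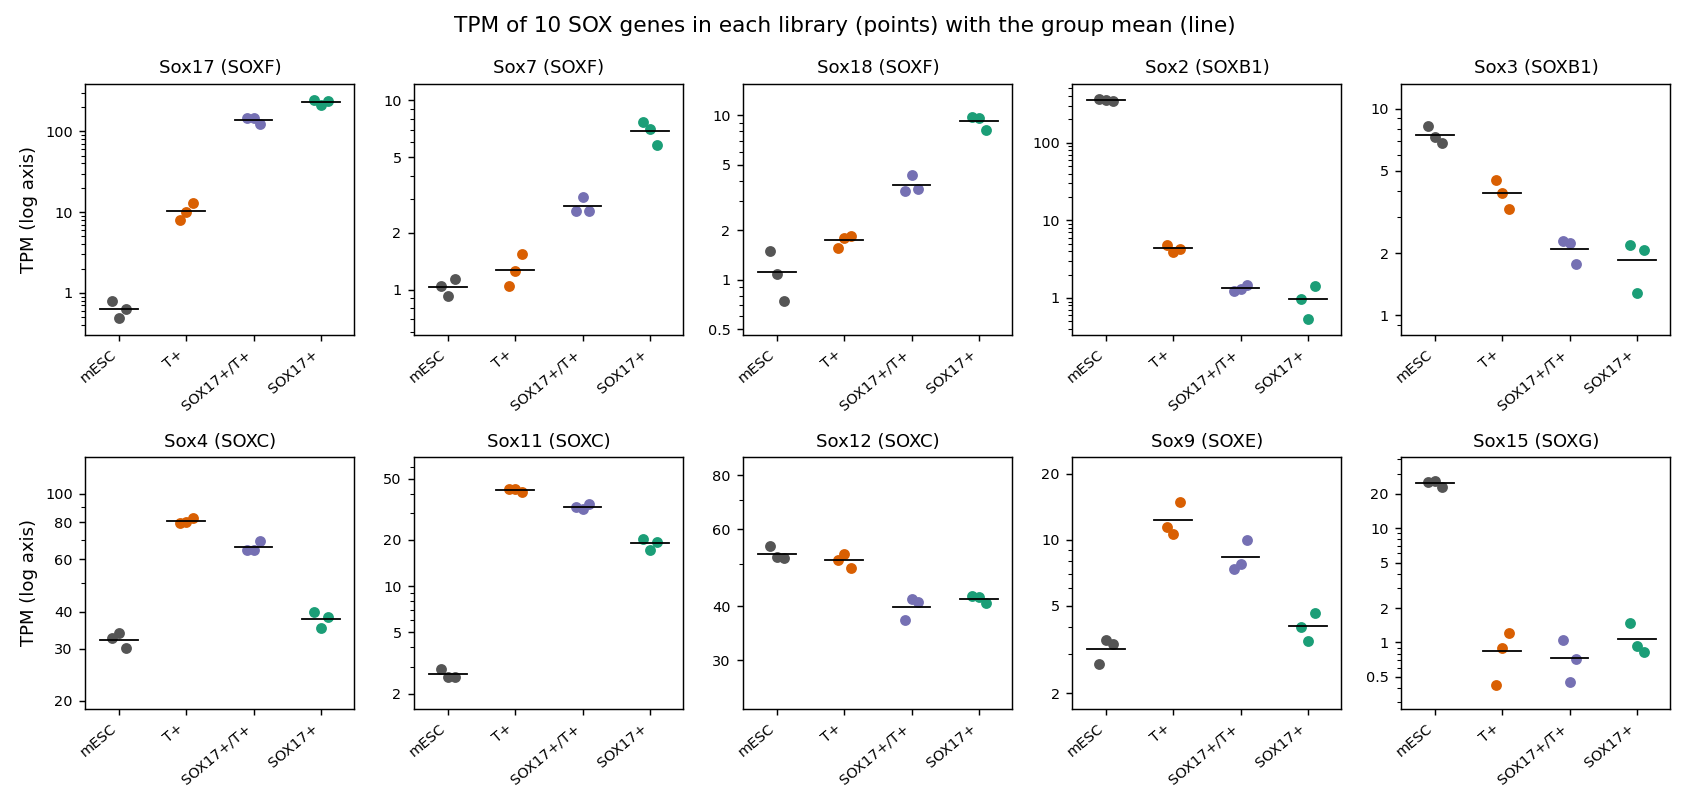
Each panel shows TPM of 1 SOX gene (y axis, log scale) by group (x axis), with 1 point per library and a line at the group mean (n = 3). The SOXF genes are highest in SOX17+, Sox4, Sox11 and Sox9 in T+, and Sox2, Sox3 and Sox15 in mESC.

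Of the SOXB1 genes, Sox2 (ENSMUSG00000074637.7, chr3:34650405-34652461, plus strand) is a core factor of pluripotency. TPM of Sox2 were 359, 354 and 341 in mESC, 4.82, 3.93 and 4.25 in T+, 1.22, 1.31 and 1.46 in double-positive and 0.964, 0.537 and 1.42 in SOX17+ libraries. The mESC libraries stand far above all others, and T+ libraries above double-positive and SOX17+ libraries. Sox2 was lower in T+ than in mESC (-6.05 ± 0.13, adjusted p = 8.8e-14) and lower again in double-positive than in T+ cells (-1.19 ± 0.13, adjusted p = 1.5e-05). On that scale it was called at least 2-fold lower in double-positive than in T+ cells, as were 0.733% of all tested genes. SOX17+ and double-positive libraries overlap, and their difference was not called (-0.26 ± 0.13, adjusted p = 0.13), but was without SOX17+ replicate 3 (-0.42, adjusted p = 0.0077).

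Sox3 (ENSMUSG00000045179.9, chrX:60891366-60893430, minus strand) acts with Sox2 in neural progenitors and shares 91.1% of its HMG box residues. TPM of Sox3 were 8.26, 7.33 and 6.82 in mESC, 4.52, 3.92 and 3.28 in T+, 2.30, 2.23 and 1.77 in double-positive and 2.19, 1.29 and 2.08 in SOX17+ libraries. It started far lower than Sox2 in mESC, and double-positive and SOX17+ libraries overlap. Sox3 was lower in T+ than in mESC (-0.79 ± 0.13, adjusted p = 9.7e-05) and lower again in double-positive than in T+ cells (-0.66 ± 0.13, adjusted p = 0.0026). SOX17+ and double-positive cells did not pass the test (-0.13 ± 0.13, adjusted p = 0.50). Sox2 stood at 4727 ± 338% of the TPM of Sox3 in mESC, 112 ± 15.6% in T+, 64.9 ± 15.7% in double-positive and 51.3 ± 14.8% in SOX17+ cells.

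The OCT4 and SOX2 partners and targets of pluripotency fell too. All 12 genes of that list were lower in each sorted group than in mESC (medians -5.11, -5.72 and -7.18 in T+, double-positive and SOX17+, against -0.17, -0.19 and -0.18 over all genes). Of all tested genes 49.5%, 50.3% and 50% were called lower in these comparisons. Pou5f1 stood at 92.0 ± 16.8 TPM in T+, 25.1 ± 2.40 TPM in double-positive and 5.69 ± 0.529 TPM in SOX17+ cells (-3.78 ± 0.11, adjusted p = 1.5e-10 for SOX17+ versus T+). Of the 12 genes 8 were lower and 2 higher in SOX17+ than in T+ cells, against 29% lower and 25.4% higher over all genes. Of a neural list with SOXB1 partners (12 genes, 8 tested), 5 were lower and 3 not called in SOX17+ versus T+ cells, beside the same shares over all genes.

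The SOXG gene Sox15 (ENSMUSG00000041287.5, chr11:69655314-69656727, plus strand) is known from stem cells and muscle. TPM of Sox15 were 25.3, 26.0 and 23.0 in mESC, 0.422, 0.892 and 1.20 in T+, 1.04, 0.454 and 0.711 in double-positive and 1.49, 0.934 and 0.817 in SOX17+ libraries. The mESC libraries stand apart, and the sorted groups overlap one another near 1 TPM. Sox15 was lower in T+ (-3.83 ± 0.17, adjusted p = 1.2e-10), double-positive (-3.90 ± 0.17, adjusted p = 1.0e-10) and SOX17+ cells (-3.64 ± 0.17, adjusted p = 2.0e-10) than in mESC. Between sorted groups it did not pass the test in double-positive versus T+ (-0.07 ± 0.17, adjusted p = 0.79), SOX17+ versus T+ (0.19 ± 0.17, adjusted p = 0.38) or SOX17+ versus double-positive cells (0.26 ± 0.17, adjusted p = 0.26). Its 3′ end overlaps that of Mpdu1 on the other strand by 31 bases, and Mpdu1 stood between 59.4 and 88.7 TPM. The library kit was stranded, and the sources used here do not say whether counting used strand.

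Of the SOXC genes, Sox4 and Sox11 are broad factors of progenitor cells and share 92.4% of HMG box residues. TPM of Sox4 (ENSMUSG00000076431.4, chr13:28948919-28953713, minus strand) were 32.4, 33.7 and 30.1 in mESC, 79.5, 80.2 and 82.9 in T+, 64.4, 64.5 and 69.3 in double-positive and 39.8, 35.3 and 38.4 in SOX17+ libraries. No groups overlap, and T+ was the highest. Sox4 was higher in T+ than in mESC (1.31 ± 0.05, adjusted p = 5.6e-11). It was lower in double-positive than in T+ cells (-0.29 ± 0.05, adjusted p = 0.0014) and lower again in SOX17+ than in double-positive cells (-0.79 ± 0.05, adjusted p = 2.4e-07). SOX17+ cells stood little above mESC (0.23 ± 0.05, adjusted p = 0.0014; 0.44 with quantile normalization). A predicted gene, Gm26735, overlaps Sox4 on the other strand by 2753 of its 4795 bases and stood between 0.710 and 2.76 TPM.

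TPM of Sox11 (ENSMUSG00000063632.6, chr12:27334264-27342574, minus strand) were 2.90, 2.56 and 2.56 in mESC, 43.1, 42.6 and 40.8 in T+, 32.6, 31.9 and 34.1 in double-positive and 20.4, 17.1 and 19.5 in SOX17+ libraries. The order of the sorted groups is that of Sox4, again without overlap, but all of them lie far above mESC. Sox11 was higher than in mESC in T+ (3.55 ± 0.07, adjusted p = 2.2e-14), double-positive (3.20 ± 0.07, adjusted p = 5.7e-14) and SOX17+ cells (2.44 ± 0.07, adjusted p = 7.1e-13). Among the sorted groups it was lower in double-positive than in T+ (-0.35 ± 0.07, adjusted p = 0.0014) and in SOX17+ than in double-positive cells (-0.76 ± 0.07, adjusted p = 1.6e-06).

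Sox12 (ENSMUSG00000051817.8, chr2:152393611-152398063, minus strand), the third SOXC gene, is broadly expressed. TPM of Sox12 were 54.9, 51.9 and 51.5 in mESC, 51.1, 52.6 and 49.0 in T+, 37.2, 41.4 and 40.9 in double-positive and 42.2, 41.9 and 40.6 in SOX17+ libraries. The mESC and T+ libraries overlap, as do the double-positive and SOX17+ libraries, and the former lie above the latter. Sox12 was lower than in T+ in double-positive (-0.35 ± 0.05, adjusted p = 1.4e-04) and in SOX17+ cells (-0.29 ± 0.05, adjusted p = 2.3e-04). The direction in T+ versus mESC depended on the scaling, which moved the median of all genes in T+ versus mESC from -0.17 as deposited to 0.07 with quantile normalization. T+ did not pass the test against mESC as deposited (-0.05 ± 0.05, adjusted p = 0.33) and was higher with quantile normalization (0.25, adjusted p = 3.0e-04). The calls of lower Sox12 than in mESC in double-positive (-0.40 ± 0.05, adjusted p = 4.0e-06) and SOX17+ cells (-0.34 ± 0.05, adjusted p = 2.0e-05) ended with quantile normalization, with the direction as before (-0.10, adjusted p = 0.068, and -0.07, adjusted p = 0.19).

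In a list of 6 neuronal and cytoskeletal genes linked to SOXC factors, 1 of the 5 tested genes was higher and 2 were lower in SOX17+ than in T+ cells, near the 25.4% higher and 29% lower of all genes. Tead2, a known SOXC target, stood at 107 ± 7.45 TPM in mESC, 269.9 ± 29.2 TPM in T+ and 199 ± 26.6 TPM in SOX17+ cells (-0.44 ± 0.11, adjusted p = 0.0055 for SOX17+ versus T+). Tubb3, a neuronal tubulin, stood at 93.2 ± 3.01 TPM in mESC and at no more than 1.88 TPM in any sorted library. Dcx, a marker of young neurons, was at 0 in mESC.

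The SOXE gene Sox9 (ENSMUSG00000000567.5, chr11:112782224-112787760, plus strand) is the master factor of cartilage and also marks other progenitors. TPM of Sox9 were 2.72, 3.48 and 3.36 in mESC, 11.5, 10.6 and 14.8 in T+, 7.34, 7.72 and 9.92 in double-positive and 4.02, 3.47 and 4.64 in SOX17+ libraries. T+ libraries were the highest, double-positive libraries lay between T+ and SOX17+ without overlap, and SOX17+ and mESC libraries overlap. Sox9 was higher in T+ than in mESC (1.66 ± 0.14, adjusted p = 7.5e-08) and lower in SOX17+ than in double-positive cells (-0.88 ± 0.14, adjusted p = 2.3e-04). The difference of double-positive from T+ (-0.51 ± 0.14, adjusted p = 0.014) was not called without T+ replicate 3 (adjusted p = 0.061), double-positive replicate 1 (adjusted p = 0.061) or double-positive replicate 2 (adjusted p = 0.053). SOX17+ did not pass the test against mESC (0.27 ± 0.14, adjusted p = 0.083). It did with median-of-ratios scaling (0.39, adjusted p = 0.016), quantile normalization (0.53, adjusted p = 0.0025), a fit to these groups only (adjusted p = 0.046), the replicate block (adjusted p = 0.019) and without SOX17+ replicate 2 (0.35, adjusted p = 0.044).

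Of the SOX9 cartilage targets and partners (10 genes, 8 tested), 2 were higher and 4 lower in SOX17+ than in T+ cells, against 25.4% higher and 29% lower over all genes. The collagen gene Col9a1 followed the order of Sox9 among the sorted groups, at 23.0 ± 4.08 TPM in T+, 10.3 ± 1.59 TPM in double-positive and 3.59 ± 0.194 TPM in SOX17+ cells. Hapln1, which encodes a cartilage link protein, ran the other way, at 1.18 ± 0.311, 5.10 ± 0.764 and 18.2 ± 2.31 TPM.

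**Figure D4:**
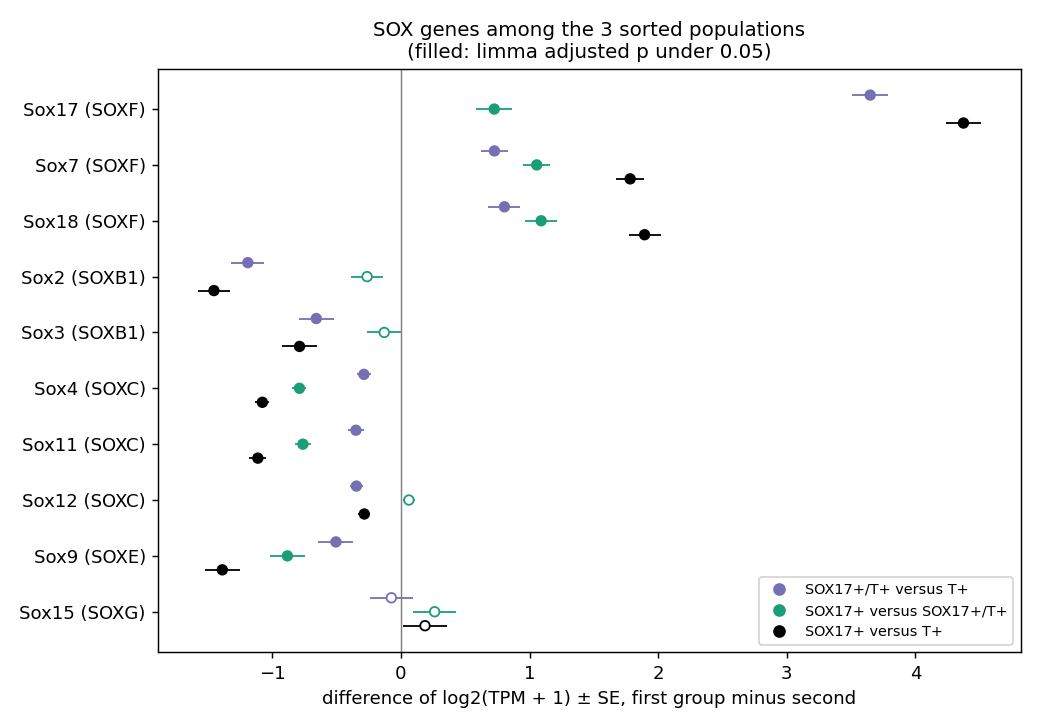
Differences of log2(TPM + 1) ± SE between the sorted populations (x axis) are shown for each SOX gene (y axis), with filled points where limma's adjusted p was under 0.05. The SOXF genes lie right of 0 in all 3 comparisons, and Sox4, Sox11 and Sox9 lie left of 0.

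By calls, double-positive cells differed from both single-positive populations and lay between them for 6 of the 10 genes. Sox17, Sox7, Sox18, Sox4, Sox11 and Sox9 were called in the same direction in double-positive versus T+ and in SOX17+ versus double-positive. The share of all tested genes that do so was not computed, so the count cannot be read as particular to SOX genes. The order of Sox17 can follow from the gates. The call of Sox9 against T+ is the one lost without any of the 3 libraries named above. Sox2, Sox3 and Sox12 differed from T+ and were not called against SOX17+ cells, and the double-positive means of Sox2 and Sox3 also lie between those of T+ and SOX17+. Sox15 was called in neither.

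Among the 10 further family members, Sox1, Sox6, Sox13 and Sox21 passed the filter. Sox5, Sox8, Sox10, Sox14 and Sox30 stood at no more than 0.717 TPM in any library, and Sry was listed at 0. Sox21, a SOXB2 gene known to counter SOXB1 factors, had TPM of 1.16, 0.902 and 1.76 in T+, 6.78, 5.62 and 7.79 in double-positive and 8.13, 7.97 and 8.07 in SOX17+ libraries. It was higher in double-positive than in T+ cells (1.77 ± 0.13, adjusted p = 3.9e-07), and the difference of SOX17+ from double-positive was not called (0.24 ± 0.13, adjusted p = 0.17). Sox13 (SOXD) stood at 29.3 ± 0.836 TPM in SOX17+ and 15.3 ± 1.72 TPM in T+ cells (0.90 ± 0.07, adjusted p = 1.5e-07). Sox6, also SOXD, stood at 0.106 ± 0.0109 TPM in mESC, 4.62 ± 0.258 TPM in T+ and 2.61 ± 0.219 TPM in SOX17+ cells (-0.64 ± 0.10, adjusted p = 1.4e-04 for SOX17+ versus T+). Sox1, a SOXB1 gene of the neural plate, stood at 3.42 ± 0.409 TPM in mESC and at no more than 0.386 TPM in any sorted library.

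Of 14 genes in a list of the endoderm network around SOX17, 8 were higher and 4 lower in SOX17+ than in T+ cells (median 0.61), against 25.4% higher and 29% lower over all genes. The lower genes were Mixl1 (-1.38 ± 0.18, adjusted p = 2.8e-05), Gsc (-0.86 ± 0.22, adjusted p = 0.0058), Lhx1 (-0.82 ± 0.17, adjusted p = 0.0015) and Cxcr4 (-0.79 ± 0.18, adjusted p = 0.0028), known from early mesendoderm and endoderm. The forkhead gene Foxa1 stood at 2.18 ± 1.16 TPM in T+, 15.4 ± 1.77 TPM in double-positive and 42.3 ± 3.61 TPM in SOX17+ cells (2.41 ± 0.19, adjusted p = 2.5e-06 for double-positive versus T+). Gata4 was already higher in T+ than in mESC (4.52 ± 0.06, adjusted p = 1.5e-15), at 66.2 ± 2.02 TPM, and did not pass the test in double-positive versus T+ (0.05 ± 0.06, adjusted p = 0.58).

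The genes most like each SOX gene were sought by Pearson's r of log2(TPM + 1) over the 12 libraries among 9210 genes. These r are descriptions, since the libraries fall into 4 groups. Nearest to Sox17 was the protease gene Tmprss2 (r = 0.996), at 10.2 ± 1.20 TPM in T+, 106 ± 11.7 TPM in double-positive and 228 ± 6.0 TPM in SOX17+. Sox7 lay nearest to Pigs (0.993), Ihh (0.991) and Trpv6 (0.990), and Sox18 to Galns (0.990), Pigs (0.989) and Slc22a23 (0.989). Ihh, a hedgehog ligand, stood at 0.532 ± 0.149, 3.13 ± 0.178 and 20.5 ± 1.22 TPM in the same order. Sox2 had Rbmxl1 (0.999) and Pcyt1b (0.999) among its 3 nearest genes, and Sox3 to Parp1 (0.987). Sox4 and Sox9 each had T among their 3 nearest genes (0.994 and 0.985), and Sox4 also had Mesp1 (0.993), a factor of nascent mesoderm. Sox11 lay nearest to the apelin receptor gene Aplnr (0.998) and to Foxh1 (0.998), a cofactor of NODAL signalling. Sox15 lay nearest to Sbds (0.997) and Sox12 to Mprip (0.972).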

How the data were processed

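Per the submitters' processing notes, the tools were cutadapt, STAR and StringTie on mm10 / GRCm38; the sources used here do not give their versions, the annotation release, the strand setting or filters. The authors deposited TPM, with 1 column per library in 1 table, and read counts were not used here. Empty cells (282, 0 of them in SOX rows) were set to 0, and rows were summed per gene identifier, from 54480 rows to 54446 genes. After a log2(TPM + 1) transform and a filter (at least 1 TPM in at least 3 libraries), 1 mean per group was fitted with limma 3.58.1 in R 4.3.3 (trend and robust, 8 residual degrees of freedom, 2-sided), with Benjamini-Hochberg adjustment over all 16097 genes. The code was tested on simulated data. Ratios were tested with an exact permutation test in scipy 1.17.1. The labels give only a minimum of fragments per library, and a TPM value gives no counting error.

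The SOX genes and the gene lists were chosen with earlier results of these data known. Named are all 10 SOX genes, other SOX genes with a group mean of at least 1 TPM, up to 4 called genes per list with the largest SOX17+ versus T+ difference and the 2 with the highest mean, and up to 3 nearest genes by r. Some genes that the rule names are not reported here. Sox5, Sox8, Sox10, Sox14, Sox30, Sry, Emcn, Lyve1, Nr2f2, Prox1, Flt4, Pecam1, Kdr, Efnb2, Etv2, Lama1, Afp, Mixl1, Gsc, Lhx1, Cxcr4 and Dcx fall outside that rule and were chosen after their values were seen. In SOX17+ versus T+, 1 of 5 tested neural crest genes was higher and 3 were lower, 9 of 10 streak and mesoderm genes were lower and 1 was not called, and 3 of 13 feeder genes were higher and 4 lower. Over all tested genes 25.4% were higher and 29% lower. Same-numbered T+ and double-positive libraries correlated weakly after group means were removed (r = 0.204, 0.149 and 0.242). For double-positive and SOX17+ libraries r was 0.046, 0.178 and 0.224. No other pair of groups than T+ and double-positive passed 0.1 for every number. These r do not settle which libraries are paired, no label says so, and the main fit used no pairing. Alternatives were another pseudocount, filters and scalings, other fits, the replicate block and each library left out.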

Additional observations from a re-analysis of the deposited data

How the results depend on the processing

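Over 8 other settings and with each of 12 libraries left out in turn, 7 to 10 SOX genes were called in T+ versus mESC, 9 to 10 in double-positive versus mESC, 9 to 10 in SOX17+ versus mESC, 8 to 9 in double-positive versus T+, 9 in SOX17+ versus T+ and 6 to 7 in SOX17+ versus double-positive. Of 480 single-gene differences under other settings, 471 kept their direction and their side of the threshold, and of 720 with 1 library left out, 711 did. With the replicate block 9 of 10 genes were called in double-positive versus T+, as without it, and the block changed 1 call, that of Sox9 in SOX17+ versus mESC (0.27, adjusted p = 0.019). Directions turned in 5 values, all of differences not called with all libraries, and the cause was not tested. Sox12 in T+ versus mESC was 0.095 after median-of-ratios scaling and 0.25 after quantile normalization. Sox15 in double-positive versus T+ was 0.067 without T+ replicate 3 and 0.046 without double-positive replicate 2, in a range of -0.25 to 0.067. Sox3 in SOX17+ versus double-positive was 0.021 without SOX17+ replicate 2, in a range of -0.22 to 0.021. A pseudocount of 0.1 gave 0.65 for Sox18 in T+ versus mESC and 1.33 for Sox7 in double-positive versus mESC, both called, and quantile normalization gave 0.78 for the former. Median-of-ratios scaling gave 0.39 for Sox4 in SOX17+ versus mESC, and for Sox12 -0.23 in double-positive and -0.17 in SOX17+ versus mESC. In T+ versus mESC 41% of all calls were higher as deposited, and 53.4% after quantile normalization. Levels near 1 TPM, such as Sox15 in sorted cells, rest on unknown depth.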

Other observations

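The ratio of Sox11 to Sox4 transcripts was similar in the sorted populations, as was that of Sox7 to Sox18. These pairs were chosen after their values were seen, and similarity was not tested. Other pairs within a subgroup changed their ratio. Sox2 went from 112 ± 15.6% of the TPM of Sox3 in T+ to 51.3 ± 14.8% in SOX17+ cells. Sox7 went from 12.5 ± 0.617% of the TPM of Sox17 in T+ to 2.99 ± 0.456% in SOX17+ cells. Sox17 was sorted on, so that change can follow from the gates, and Sox7 in T+ was not called against mESC. Sox11 stood at 52.2 ± 2.61% of the TPM of Sox4 in T+, 49.7 ± 0.784% in double-positive and 50.2 ± 1.36% in SOX17+ cells, and at 8.35 ± 0.696% in mESC. Sox7 stood at 73.4 ± 8.63%, 73.2 ± 1.93% and 74.4 ± 3.89% of the TPM of Sox18 in the same groups, and at 70.1, 85.8 and 154% in the mESC libraries, where both lie near 1 TPM.

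Sox2ot, a long noncoding RNA whose span contains Sox2 on the same strand, was listed between 0.57 and 0.761 TPM in mESC and at no more than 0.0231 TPM in the sorted libraries, beside the fall of Sox2. Gm37587 overlaps the 5′ end of Sox17 on the other strand by 804 bases. It was listed at 0 in mESC and at no more than 0.00967 TPM in T+ libraries. Its values were at most 0.0212 TPM in double-positive and 0.0269 to 0.0828 TPM in SOX17+ libraries. All of these lie near the floor, and the sources used here do not say whether counting used strand.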
